A study of Mus musculus with 24 samples.

Results

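The urea cycle and the breakdown of amino acids in periportal hepatocytes were followed through 9 genes, taken by symbol from the 56205 gene rows of a liver RNA sequencing table, and all 9 were among the 14109 genes that passed the low-count filter. The genes were Cps1, Otc, Ass1, Asl, Nags and Slc25a15 of the urea cycle, and Gls2, Sds and Hal, which release ammonia from amino acids. The libraries were made from poly(A) RNA of whole livers of 24 C57BL/6J mice, male and female in equal numbers, of which 12 ate a methionine- and choline-deficient diet (MCD) and 12 a control diet, each for 20 weeks. The labels name no altered allele and no other agent, the sex of each library is not labelled, and the age of the mice at the start of the diets was not given in the sources used here. The MCD diet is a model of steatohepatitis with fibrosis, in which the liver cannot export fat normally, and according to the study's methods it was also high in fat. The diet is named here as in the labels, whereas the study's text elsewhere calls its choline-deficient diet amino acid-defined, so the exact composition is not settled here. The measure is the number of reads per gene in each library, given below as CPM, the count scaled to a library of fixed size, and totals were between 16793207 and 24915175 in all for control livers and between 16388650 and 24577848 for MCD livers.

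The urea cycle turns ammonia, which is toxic, into urea for excretion, and the liver is the main organ that runs all of it. Ammonia and bicarbonate enter in the mitochondrion through carbamoyl phosphate, ornithine accepts the carbamoyl group to give citrulline, and the remaining steps in the cytosol add nitrogen from aspartate, release fumarate and split arginine into urea and ornithine. Hepatocytes that receive portal blood first, the periportal cells, hold most of this pathway, whereas the last hepatocytes before the central vein capture remaining ammonia as glutamine.

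All 9 genes had lower fitted levels in MCD livers, with a median log2 fold change (MCD over control) of -0.53, against -0.10 over all genes tested. Otc, Ass1, Nags and Gls2 passed the limits used here, an FDR of 0.01 or less with an absolute log2 fold change above 0.5 in edgeR's quasi-likelihood test, and their levels fell by 33.3% (Ass1) to 38.3% (Gls2). Thus 4 of 9 genes fell, against 19.1% of all genes tested, and 0 of 9 rose, against 19.2%. Cps1 and Slc25a15 had an FDR below 0.01 with a change inside the fold limit, Asl missed the FDR limit at 0.01005, and Sds and Hal passed neither limit. In whole liver, fewer hepatocytes and less RNA per hepatocyte cannot be told apart. The 4 calls rest on TMM scaling, which corrects each library for the share of reads taken by other genes. With total counts alone the log2 fold changes ran from -0.34 (Gls2) to 0.07 (Sds) and 0 genes were called, where 6.01% of all genes tested were called lower and 32.2% higher. With factors from 12 hepatocyte marker genes they ran from -0.16 (Gls2) to 0.28 (Sds), again with 0 called, where 3.62% of all genes tested were called lower and 43.2% higher.

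**Figure D1:**
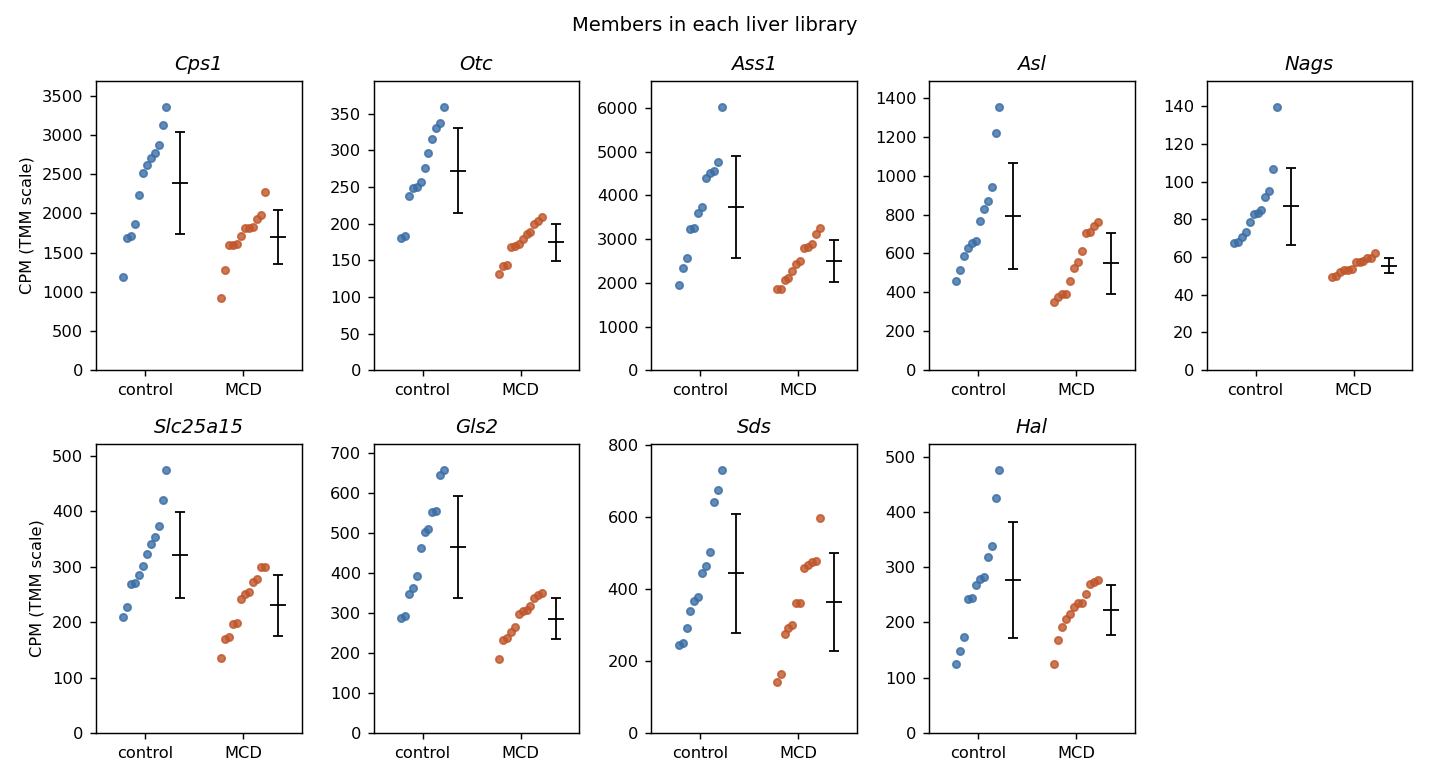
Each point is the level of a gene in 1 library as its read count scaled to a fixed library size (CPM) with TMM factors, ordered by level within a diet, with control livers in blue and MCD livers in orange. The bar shows the mean and SD of the 12 libraries, and each vertical axis starts at 0. Only for Nags do the diets not overlap, with 49.2 to 62.1 CPM in MCD livers and 67.5 to 139 in control livers.

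The library scale differed between the diets. The TMM factors, by which library sizes were multiplied, ran from 0.642 to 0.973 in control livers and from 1.07 to 1.26 in MCD livers, without overlap. The 12 hepatocyte markers, among them albumin, were present in every library and summed to between 107876 and 232654 CPM in control livers and between 85988 and 121229 in MCD livers, with 8 of 12 called lower. Markers of other cells moved as well. Of 15 macrophage and Kupffer cell markers 9 were called higher and 6 lower, with summed levels of 288 to 693 CPM in control and 2128 to 4362 in MCD livers. Of 10 mesenchymal markers 8 were called higher and 1 lower (summed 224 to 644 CPM in control and 832 to 1444 in MCD livers), and 7 of 7 cholangiocyte markers were called higher (30.4 to 147 and 459 to 916 CPM). Of 7 lymphocyte markers 4 were called higher (9.32 to 20.4 and 31.1 to 46.9 CPM), and of 7 endothelial markers 5 were called lower (198 to 293 and 118 to 183 CPM). No marker of these lists was at 0 in every library, and the part of this shift in cell markers in the levels of the urea cycle genes was not tested. Control replicate 12 stood apart from its group with the lowest TMM factor, 0.642, and MCD replicate 2 had the lowest level of its diet for 8 of the 9 genes, so values without each of them are given beside the counts of calls, ratios and correlations they change.

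Set against each other by transcript length (as TPM, the count divided by the length of the longest transcript and scaled to a fixed total, without TMM factors), the genes spanned a wide range in the same order in both diets. Ass1 was highest, at 3691 ± 1212 TPM in control livers and 3143 ± 502 in MCD livers (SD, n = 12 each). Cps1 came next with 733 ± 225 TPM in control livers, then Sds with 571 ± 213 and Asl with 537 ± 146. Cps1 and Sds differed by less than the larger of their SDs, as did Sds and Asl, in both diets. Gls2 had 305 ± 100 TPM in control livers, above Otc with 152 ± 30.5 and Slc25a15 with 123 ± 36.3, and the last 2 differed by less than the larger SD. Hal, at 87.0 ± 35.7 TPM, and Nags, at 52.4 ± 4.58 TPM, closed the order. Hal and Nags differed by less than the larger SD in control livers, and Slc25a15 and Hal did so in MCD livers. On this scale Ass1 ranked 43 among all genes in control livers and 41 in MCD livers, whereas Nags ranked 1776 and 2302.

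The first steps take place in the mitochondrion. Nags makes N-acetylglutamate, without which carbamoyl phosphate synthetase 1 is inactive. The gene (ENSMUSG00000048217) lies at chr11:102145513-102149477 on the plus strand of GRCm38. Its level was 67.5 to 139 CPM in control livers (median 83.0) and 49.2 to 62.1 CPM in MCD livers (median 55.4). Every MCD liver lay below every control liver, a separation found in that direction for 4.88% of all genes tested and in the opposite direction for 9.5%. With total counts alone the ranges were 65.1 to 89.4 CPM in control and 54.3 to 69.0 CPM in MCD livers. Nags fell by 0.65 on the log2 scale (SE 0.10, edgeR FDR 1.7e-06), so its level fell by 36.2%. With total counts alone 10 of 12 MCD livers remained below every control liver and the log2 fold change was -0.26 (FDR 0.000582), inside the fold limit. Nags was also the most even gene among MCD livers, with an SD of 0.11 on the log2 scale against 0.30 in control livers, where control replicate 12 was highest, and this contrast depends on the scale, with SDs of 0.09 and 0.15 under total counts alone. An exon of Gm11586 overlaps Nags on the opposite strand, and whether the counting used strand was not given in the sources used here, so reads of the 2 genes cannot be told apart.

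Cps1, carbamoyl phosphate synthetase 1, carries out the rate-limiting entry of ammonia into the cycle. The gene (ENSMUSG00000025991, chr1:67123026-67231259, plus strand) had 1187 to 3351 CPM in control livers (median 2566) and 922 to 2277 CPM in MCD livers (median 1763). All 12 MCD livers were below the control median, but only 1, MCD replicate 2, was below every control liver. The fitted change was -0.49 on the log2 scale with a 95% interval from -0.80 to -0.19 (SE 0.15, edgeR FDR 0.00562), just inside the fold limit. The limits were passed when any 1 of 7 libraries was left out, namely control replicates 6, 8, 9, 11 and 12 and MCD replicates 1 and 9, and the log2 fold change then reached as far as -0.54.

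Otc, ornithine transcarbamylase, joins carbamoyl phosphate to ornithine and is X-linked. It lies at chrX:10252305-10321024 on the plus strand (ENSMUSG00000031173). Otc had 180 to 359 CPM in control livers (median 266) and 132 to 210 CPM in MCD livers (median 176), and 7 MCD livers were below every control liver. It fell by 0.64 on the log2 scale (SE 0.11, edgeR FDR 1.37e-05). Slc25a15, the mitochondrial carrier that exchanges ornithine and citrulline, lies at chr8:22375551-22398597 on the minus strand (ENSMUSG00000031482). It had 210 to 475 CPM in control livers (median 312) and 134 to 300 CPM in MCD livers (median 247). The diets overlapped for this carrier, with 5 MCD livers below every control liver. The fitted log2 change was -0.47, with an SE of 0.14 and an edgeR FDR of 0.00442, and it passed the limits only when control replicate 6 or MCD replicate 9 was left out, at up to -0.52.

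The cytosolic steps begin with Ass1, argininosuccinate synthetase, which adds aspartate to citrulline. Ass1 (ENSMUSG00000076441, chr2:31470207-31520672, plus strand) had 1952 to 6018 CPM in control livers (median 3669) and 1859 to 3247 CPM in MCD livers (median 2469). The lower ends of the ranges were close, and the difference lay in the upper part, where 7 control livers were above every MCD liver. Ass1 fell by 0.58 on the log2 scale (SE 0.15, edgeR FDR 0.00158). It stayed just inside the fold limit, at -0.50, without control replicate 12 and MCD replicate 2 together or when at least 10 counts were required in every library.

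Asl, argininosuccinate lyase, yields arginine and fumarate. It lies at chr5:130011258-130029247 on the minus strand (ENSMUSG00000025533). Asl had 460 to 1351 CPM in control livers (median 716) and 351 to 762 CPM in MCD livers (median 542). In 5 MCD livers it was below every control liver, and 10 of 12 were below the control median. The log2 fold change was -0.53 with a 95% interval from -0.88 to -0.17 (SE 0.17), and Asl was called without control replicate 6, 8, 9 or 11 or without MCD replicate 1 or 9, with an FDR down to 0.00424.

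Of the 3 genes of amino acid breakdown 1 passed the limits. Gls2, the liver glutaminase that frees ammonia from glutamine beside Cps1, lies at chr10:128194457-128210004 on the plus strand (ENSMUSG00000044005). It had 288 to 658 CPM in control livers (median 483) and 186 to 350 CPM in MCD livers (median 302), and 9 control livers were above every MCD liver. Gls2 fell by 0.70 on the log2 scale (SE 0.14, edgeR FDR 8.54e-05), so its level fell by 38.3%, more than any other of the 9 genes. It was the only one still called with upper-quartile factors (log2 fold change -0.55). An exon of Spryd4 overlaps it on the opposite strand, which makes its count uncertain in the way given for Nags.

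Sds, serine dehydratase, which turns serine into pyruvate and ammonia, lies at chr5:120476526-120483932 on the plus strand (ENSMUSG00000029597). It had 244 to 729 CPM in control livers (median 411) and 140 to 595 CPM in MCD livers (median 359). The diets overlapped, with 2 MCD livers below every control liver and 3 control livers above every MCD liver, and 7 of 12 MCD livers were below the control median. The log2 fold change of -0.29 had a 95% interval from -0.73 to 0.16 (SE 0.22, edgeR FDR 0.252). Exons of Gm15690 and Plbd2 overlap Sds on the opposite strand, so its count is uncertain too. Hal, histidine ammonia-lyase, the first step of histidine breakdown, lies at chr10:93488768-93519304 on the plus strand (ENSMUSG00000020017). It had 125 to 476 CPM in control livers (median 273) and 125 to 276 CPM in MCD livers (median 231), and 0 MCD livers were below every control liver. Its log2 fold change was -0.31, with a 95% interval from -0.67 to 0.05 (SE 0.18, edgeR FDR 0.123). Neither interval excludes a fall as large as that of Otc.

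**Figure D2:**
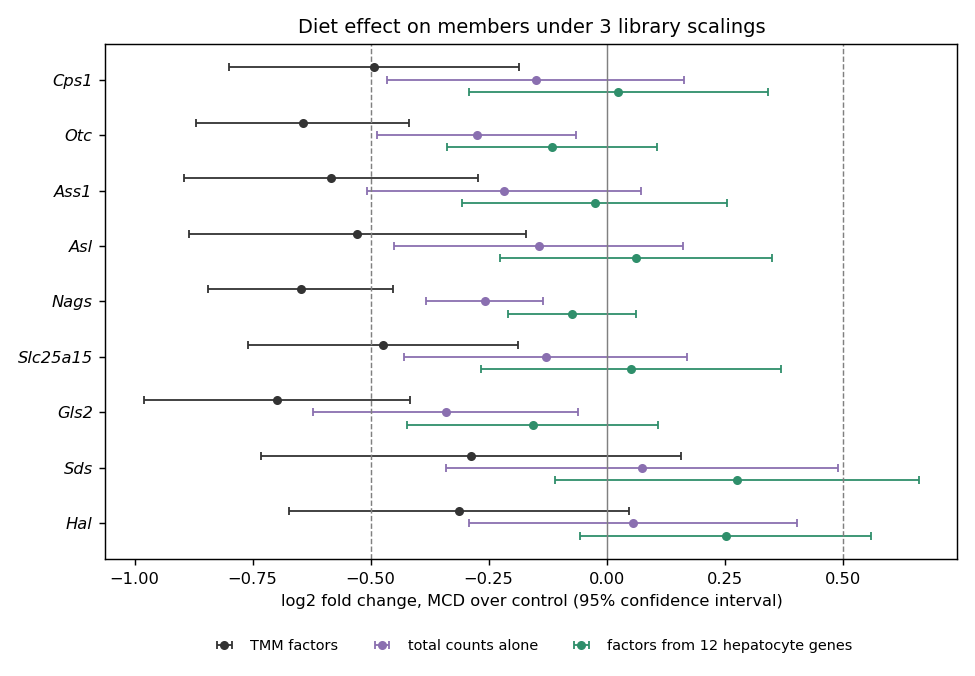
Points are log2 fold changes (MCD over control) of each gene from edgeR with 95% confidence intervals under 3 ways of scaling the libraries, and dashed lines mark the fold limit of 0.5. All 9 points lie below 0 with TMM factors, 7 with total counts alone and 4 with factors from hepatocyte genes.

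The sizes of the changes therefore depend on the reference, and for the 5 genes outside the 4 calls so does the direction. With total counts alone the median over all genes tested was 0.27, and with factors from hepatocyte markers it was 0.44, against -0.10 with TMM factors. Relative to the hepatocyte markers, Otc had a log2 fold change of -0.12 (95% interval -0.34 to 0.11), Nags -0.07 (-0.21 to 0.06), Ass1 -0.02 (-0.31 to 0.26) and Gls2 -0.16 (-0.42 to 0.11). Cps1 had 0.02 (-0.29 to 0.34) on that scale. The other 4 genes, Asl, Slc25a15, Sds and Hal, had positive values of at most 0.28. On that scale the fall of all 9 genes relative to hepatocyte transcripts was thus not detectable, whereas on the same scale 10 of 87 other genes of nitrogen handling and amino acid breakdown were called lower and 9 higher, against those shares of 3.62% and 43.2%.

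Promoter sequence, taken from RefSeq on GRCm38.p6, was at hand for 5 of the 9 genes. Of these, 3 windows, each the 250 bases before the annotated start, are printed 5′ to 3′ on the plus strand of the genome, which is the coding strand of each. Otc and Nags fell and Hal did not pass the limits, and all 3 windows lie outside the annotated gene. The window of Ass1, which also fell, is not printed because its last 63 bases lie inside the gene as GENCODE annotates it. Capitals mark matches, on either strand, to 7 short motifs that are spelled out after the sequences.
Otc, chrX:10252055-10252304: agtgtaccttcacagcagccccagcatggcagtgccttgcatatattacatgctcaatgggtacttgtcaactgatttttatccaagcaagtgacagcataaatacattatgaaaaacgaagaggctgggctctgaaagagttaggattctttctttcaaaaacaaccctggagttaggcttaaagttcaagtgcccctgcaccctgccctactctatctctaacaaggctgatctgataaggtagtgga
Nags, chr11:102145263-102145512: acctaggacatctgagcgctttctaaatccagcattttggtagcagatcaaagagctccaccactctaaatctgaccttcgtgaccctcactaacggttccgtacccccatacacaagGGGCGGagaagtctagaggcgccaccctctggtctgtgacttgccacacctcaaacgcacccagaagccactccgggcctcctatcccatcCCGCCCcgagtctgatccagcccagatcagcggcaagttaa
Hal, chr10:93488518-93488767: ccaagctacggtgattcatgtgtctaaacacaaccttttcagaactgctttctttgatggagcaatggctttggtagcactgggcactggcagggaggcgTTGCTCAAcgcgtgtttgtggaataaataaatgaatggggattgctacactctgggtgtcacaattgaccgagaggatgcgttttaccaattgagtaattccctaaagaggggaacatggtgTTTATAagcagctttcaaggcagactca

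The 3 windows differed in composition. The Otc window held 0 matches and 43.6% G and C. The Nags window, with 55.6% G and C, held GC boxes that begin 132 and 41 bases before the start, the second on the reverse strand. The Hal window, with 45.6% G and C, held a C/EBP match from 150 to 143 bases and a TATA match on the reverse strand from 28 to 23 bases before the start. Among 32851 promoter windows of the same length, 32.7% held a GC box, searched as GGGCGG, and 12.4% held a TATA match, searched as TATAAA. The C/EBP motif, searched as TTGCNNAA, was in 9.56% and the E-box, searched as CACGTG, in 6.02%. The window of Ass1 (75.6% G and C) held a GC box and an E-box, both within the bases inside the annotated gene. Both windows of Slc25a15 held GC boxes, but 1 of them, which also held an E-box, lies wholly inside the annotated gene. The core of the cyclic AMP response element, searched as TGACG and held by 17.8% of all windows, was in 0 of the 6 windows of these 5 genes. The same held for the core of the glucocorticoid receptor site, searched as TGTTCT and held by 16.1%, and for the HNF4 motif, searched as CAAAGTCC and held by 1.20%. Motifs of different factors did not overlap in the printed windows.

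A ratio of 2 genes within a library does not depend on the library scale, so each pair of the 9 genes was also compared as a log2 ratio of counts. Of 36 ratios, 1 differed between the diets after adjustment over all 36. The Gls2/Hal ratio was 0.45 to 1.20 in control livers (median 0.87) and 0.07 to 0.57 in MCD livers (median 0.36). In 7 MCD livers it was below every control liver. The ratio fell by 0.42 on the log2 scale (SE 0.09, two-sided permutation test, p = 0.0002, adjusted p = 0.0072). The difference was -0.46 without control replicate 12 (adjusted p = 0.0036) and -0.44 without MCD replicate 2 (adjusted p = 0.00792). Gls2/Sds, with a difference of -0.36 (SE 0.15, permutation p = 0.0295), did not pass the adjustment (adjusted p = 0.441). No ratio within the 6 urea cycle genes passed, which does not show that they moved alike.

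Ratios between a gene and its relative, or an enzyme that acts on a shared substrate, were compared in the same way, and 3 of the 4 given here differed between the diets. Sdsl, a relative of serine dehydratase, was 10.3 to 35.9 CPM in control and 10.9 to 24.2 CPM in MCD livers. The Sdsl/Sds ratio was higher by 0.47 in MCD livers (SE 0.14, permutation p = 0.00313, adjusted p = 0.0072), with 4 MCD livers above every control liver. Oat, ornithine aminotransferase, which uses ornithine in pericentral cells, had 499 to 1636 CPM in control livers and 234 to 625 CPM in MCD livers. The Oat/Otc ratio was lower by a log2 difference of -0.61 (SE 0.19, permutation p = 0.0036, adjusted p = 0.0072), so Oat was reduced beyond Otc. Glul, glutamine synthetase, the pericentral enzyme that captures ammonia, had a median of 1302 CPM in control and 1309 CPM in MCD livers, a log2 difference of -0.08 with an SE of 0.12 and an edgeR FDR of 0.553. The Glul/Gls2 ratio was higher by 0.58 in MCD livers (SE 0.22, permutation p = 0.0174, adjusted p = 0.0233). The Glul/Cps1 ratio differed by 0.38 (SE 0.22, permutation p = 0.106, adjusted p = 0.106), by 0.46 without control replicate 12 (adjusted p = 0.0496) and by 0.28 without MCD replicate 2 (adjusted p = 0.198). Slc25a2, the second ornithine carrier, had at most 7 reads in any library and was not tested.

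**Figure D3:**
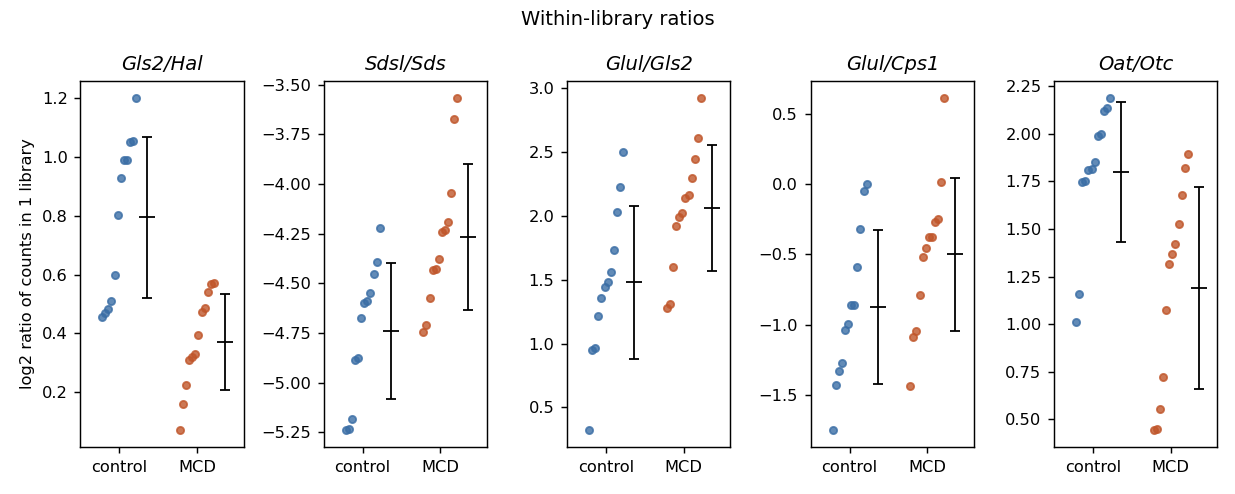
Each point is the log2 ratio of the counts of 2 genes in 1 library, ordered within a diet, with control livers in blue and MCD livers in orange, and bars give the mean and SD of 12 libraries. Vertical axes differ between panels and do not start at 0, since ratios on a log scale have no fixed origin. The Gls2/Hal ratio of 7 MCD livers and the Oat/Otc ratio of 4 lie below every control liver, and the Sdsl/Sds ratio of 4 lies above every control liver.

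The other genes of these pathways were described as lists. Of 90 genes described here 87 were tested, and 54 were called lower (62.1%), against 19.1% of all genes tested, with a median log2 fold change of -0.59. Under total counts alone 17 were called lower and 4 higher, against 6.01% and 32.2% of all genes, so these counts depend on the scale as those of the 9 genes do. The genes named below are those with the largest changes past the limits in each list, apart from Tat, Nos2 and Tdh. Exons of other genes overlap Car5a, Glul, Qdpr, Afmid, Aldh6a1, Mut, Pcca, Dhtkd1, Cebpa and Tdh, on the opposite strand or, for Afmid and Glul, on both, so their counts are uncertain in the way given for Nags.

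Genes that supply ammonia, bicarbonate, glutamate and aspartate to the cycle fell in 8 of 15 cases, with a list median of -0.54 and 0 called higher. Car5a, the mitochondrial carbonic anhydrase that provides bicarbonate to Cps1, had 57.3 to 119 CPM in control and 28.3 to 47.4 CPM in MCD livers, without overlap. Car5a fell by 1.20 on the log2 scale (SE 0.12, edgeR FDR 1.84e-09). Slc38a3, a glutamine transporter of hepatocytes, had 1476 to 3279 CPM in control and 817 to 1283 CPM in MCD livers, also without overlap, and fell by 1.09 (SE 0.11, FDR 4.34e-09). On this TMM scale 4.88% of all genes tested were separated in that direction and 9.5% in the opposite direction. Slc38a4, which carries neutral amino acids into hepatocytes, fell by 0.97 (SE 0.10, FDR 3.3e-09). The log2 changes of these 3 genes stand beside -0.49 for Cps1 and -0.70 for Gls2, and the differences were not tested. Of 5 genes tested and described in the ornithine and arginine branches 2 fell, Oat by 1.25 (SE 0.19, edgeR FDR 3.55e-06) and Agmat, which hydrolyses agmatine, by 0.57 (SE 0.11, FDR 0.000101). The direction of Agmat turned with factors from hepatocyte markers. The inducible nitric oxide synthase gene Nos2 was too low to test, with 0 to 5 reads per control library and 3 to 31 per MCD library.

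Of the genes for histidine, serine, threonine and glycine breakdown 8 of 10 tested fell, with a list median of -0.69. Gldc, of the glycine cleavage system, fell by 1.23 (SE 0.15, edgeR FDR 6.56e-08). Uroc1 and Ftcd, which act after Hal in histidine breakdown, fell by 1.11 (SE 0.09, FDR 1.25e-10) and 0.94 (SE 0.09, FDR 2.37e-09), beside the -0.31 of Hal itself. Tdh, threonine dehydrogenase, was not tested and had at most 2 reads in any library.

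Phenylalanine and tyrosine breakdown had 7 of 8 genes lower, with a list median of -0.63. Qdpr, which regenerates the cofactor of phenylalanine hydroxylase, fell by 1.02 (SE 0.12, edgeR FDR 9.22e-08), Hpd, hydroxyphenylpyruvate dioxygenase, by 0.75 and Fah, the last enzyme of tyrosine breakdown, by 0.69. Tat, tyrosine aminotransferase, the member that did not fall, had a log2 fold change of 0.10 (SE 0.26, FDR 0.752). Tryptophan breakdown had 5 of 8 lower, among them Haao by 1.32 (SE 0.14, edgeR FDR 1.48e-08), Afmid by 1.30 and Kynu by 1.06, all of the kynurenine route, with a list median of -0.61.

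Branched-chain amino acid breakdown had 11 of 19 genes lower and a list median of -0.57, led by Aldh6a1 of valine breakdown, which fell by 0.99 (SE 0.11, edgeR FDR 3.19e-08). Mut, methylmalonyl-CoA mutase, fell by 0.89 and Pcca, a subunit of propionyl-CoA carboxylase, by 0.81. Lysine and proline breakdown had 7 of 9 lower and the lowest list median, -0.73, with Dhtkd1 down by 1.27 (SE 0.12, edgeR FDR 2.08e-09), Prodh2 by 0.91 and Gcdh by 0.86. Among 13 hormone and transcription regulators of amino acid breakdown 6 fell and 0 rose, with a list median of -0.49. Ppara, the fatty acid receptor that also restrains amino acid breakdown, fell by 1.76 (SE 0.20, edgeR FDR 2.51e-08). Cebpa, the liver C/EBP factor, fell by 0.83 (SE 0.08, FDR 6.6e-10), and Nr3c1, the glucocorticoid receptor, by 0.73 (SE 0.12, FDR 8.01e-06).

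**Figure D4:**
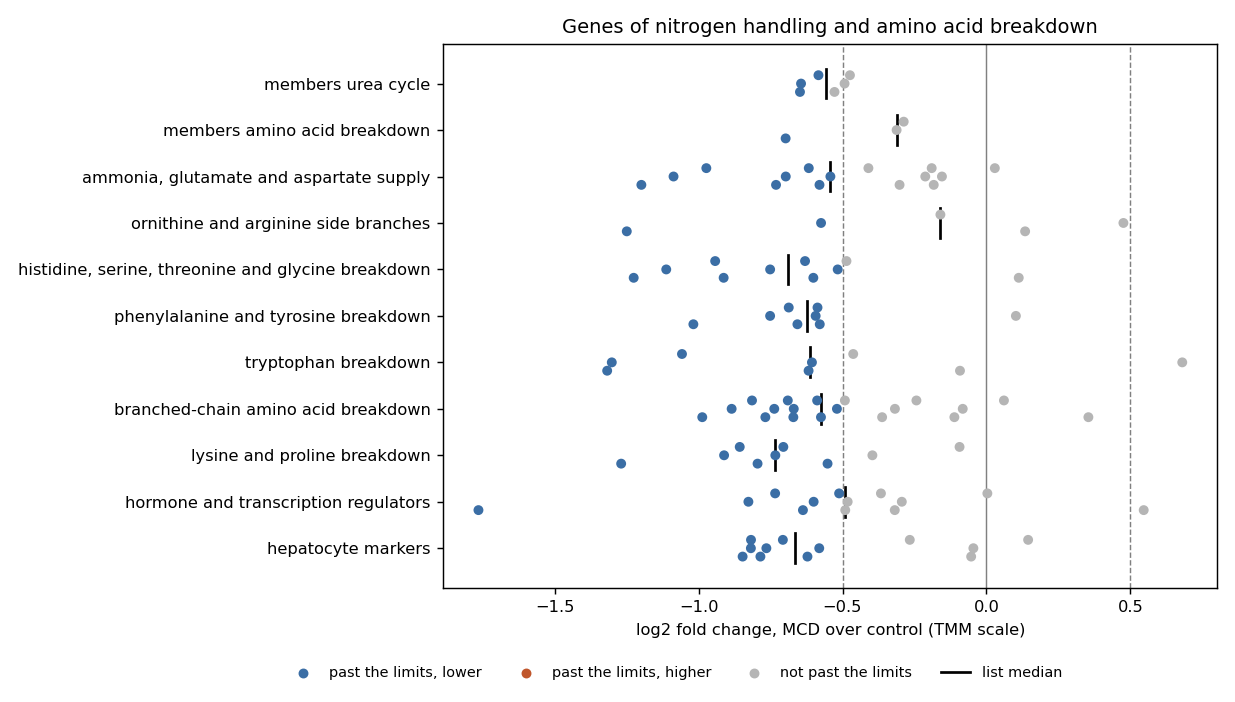
Each point is the log2 fold change (MCD over control, TMM scale) of 1 gene, with genes past the limits in blue, all of them lower, others in grey and the list median as a black bar. Dashed lines mark the fold limit of 0.5, which most list medians lie beyond. Hepatocyte markers, at the bottom, have a median of -0.66.

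Within each diet many pairs of the 9 genes were correlated from liver to liver. Over 12 control livers 34 of 36 pairs had a positive Pearson's r of log2 CPM (median 0.55, from -0.15 to 0.90), and over 12 MCD livers all 36 did (median 0.71, from 0.17 to 0.96). After adjustment over the 72 tests of both diets, 15 control and 20 MCD pairs passed 0.05 by permutation of r, and 16 and 14 by Spearman's rho. When the 2 libraries farthest from the median of the first gene were left out, 12 and 9 pairs passed both ways, against 6 and 4 with total counts alone. The other 3 control and 11 MCD pairs had a median r of 0.74 and 0.77 over 12 libraries and of 0.58 and 0.53 over the 10 left, where fewer libraries also make the test harder to pass. Without MCD replicate 2 the median r among MCD livers was 0.58, 13 pairs passed and 34 of 36 were positive, the lowest being Otc with Slc25a15 at -0.26, and without control replicate 12 the median among control livers was 0.73 and 21 passed. Whether the diets differ in these correlations was not tested.

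The tightest pairs were not always neighbours in the pathway. In MCD livers Asl and Slc25a15 had r = 0.96 and rho = 0.97 (permutation, adjusted p = 0.00072 for both), and r = 0.96 without the 2 farthest libraries. Ass1 and Asl, which act in turn, had r = 0.91 and rho = 0.90 (permutation, adjusted p = 0.00168 and 0.00432), and r = 0.86 without the 2 farthest. In control livers Gls2 and Hal, whose ratio differed between the diets, had r = 0.90 and rho = 0.83 (permutation, adjusted p = 0.00153 and 0.00777), and r = 0.79 without the 2 farthest. Asl and Sds had r = 0.89 and rho = 0.92 in control livers (permutation, adjusted p = 0.00153 and 0.00432), and r = 0.86 without the 2 farthest. Otc and Nags were the least coupled genes, with a median r to the other 8 of 0.26 and 0.40 in control livers and of 0.38 and 0.49 in MCD livers. Otc had 0 partners past the adjustment in control livers and Nags had 1, and each had 1 in MCD livers. Without MCD replicate 2 both had 0 partners past the adjustment in MCD livers, at a median r of 0.09 for Otc and 0.46 for Nags, and Hal, at 0.43, was then below Nags. Without control replicate 12 the medians in control livers were 0.43 and 0.57, with 0 partners for Otc and 1 for Nags, which was then Cps1 (r = 0.77) in place of Asl. With total counts alone the medians of Otc and Nags were 0.11 and 0.28 in control livers and 0.20 and 0.10 in MCD livers, with 1 partner for Otc and 0 for Nags in each diet. The negative control pairs were Nags with Cps1 and with Slc25a15, and without control replicate 12 all 36 control pairs were positive.

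**Figure D5:**
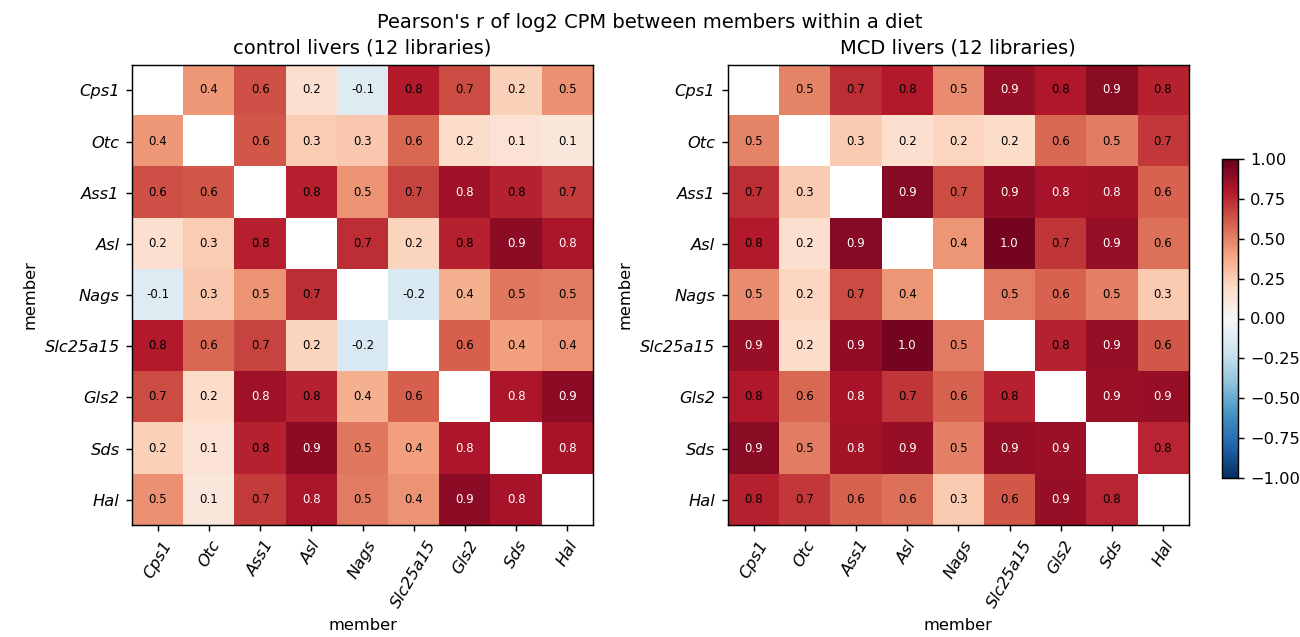
Each cell is Pearson's r of log2 CPM between 2 of the genes over 12 control libraries (left) or 12 MCD libraries (right), rounded to 1 decimal, on a colour scale from -1 to 1. The rows of Otc and Nags are the palest in the MCD panel, and 2 pairs, Nags with Cps1 and with Slc25a15, are below 0 in the control panel.

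Over all 24 libraries, after taking out the mean of each diet, the genes most like each of the 9 were looked up among 10100 others with a mean of at least 5 CPM, as a description only. Hal was most like Amdhd1, a later step of histidine breakdown (r = 0.90). Cps1 was most like Sfxn1, a mitochondrial serine carrier (r = 0.91), then Slc38a4 (r = 0.89) and Pptc7 (r = 0.88). Got1, the cytosolic aspartate aminotransferase, was the gene most like Ass1 (r = 0.84), Slc25a15 (r = 0.86) and Sds (r = 0.88) and the second most like Gls2 (r = 0.79). Got1 itself differed by -0.15 on the log2 scale, with an SE of 0.22 and an edgeR FDR of 0.556. Gnmt and Cth, enzymes of methionine and cysteine metabolism, came next after Got1 for Ass1 (r = 0.81 and 0.77), and Mat1a, which makes S-adenosylmethionine, for Slc25a15 (r = 0.83). Otc was most like Adk, adenosine kinase (r = 0.91), and Nags most like Hyal2, a hyaluronidase (r = 0.94). Asl was most like Etnk2, an ethanolamine kinase (r = 0.88), and Gls2 most like Sdc1, syndecan 1 (r = 0.81). Libraries share their scale across all genes, so part of any such r may come from the library itself, which was not tested.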

How the data were processed

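Poly(A) RNA of 24 whole mouse livers, 12 per diet, was analysed from the raw read counts per Ensembl gene that the authors deposited, with 1 column per library, no normalization and 0 columns left unused. The submitters' processing notes name bcl2fastq, STAR 2.7.3a and mm10, without their roles, and the counting program, annotation and use of strand are not given for the mouse livers in the sources used here. The study's methods name a stranded kit, and STAR, an exon quantification pipeline and PISCES with a human reference, without saying whether this covers the mouse libraries. Libraries are single samples of 1 group each, and their labels do not give the animals' sex. Total counts per library ran from 16388650 to 24915175, so counting error was small beside the spread between livers except for genes with few reads.

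Symbols, coordinates, exon overlaps and lengths came from GENCODE mouse release M21 (GRCm38), which named 51745 of 56205 rows. Rows without a symbol held 0.0808% of counts and stayed in under their identifier. Mmut and Tf are listed there as Mut and Trf. Genes kept by filterByExpr were fitted on all libraries with edgeR 4.0.16 in R 4.3.3 (TMM factors, glmQLFit and glmQLFTest, no covariate), with Benjamini-Hochberg adjustment over 14109 genes. SEs were obtained from the size of each log2 fold change over the root of its F statistic. CPM values use TMM-scaled library sizes. Hepatocyte-list factors are the median of ratios over 12 hepatocyte markers. Ratios and correlations used a prior count of 2 and two-sided permutation tests with 100000 resamples (scipy 1.17.1, numpy 2.4.6, Python 3.11.15). The fit was tested on simulated data with 12 libraries per diet. At the limits used here it recovered 59 of 100 genes changed by 0.7 on the log2 scale and 82 of 100 changed by 1, with 0 false calls. A gene that was not called can therefore still have changed. The 9 genes and all lists were chosen with earlier results of these data known. Named were all 9 genes, the genes of the ratios, up to 3 list genes with the largest rise and fall past the limits, and the 3 genes most like each of the 9, of which only some are printed. Another 2 genes of the pathway, 1 zonation gene and 2 planned ratios are not reported here. Tat, Nos2 and Tdh were named after their values were seen. Alternatives were other factors, filters and thresholds, DESeq2 1.42.0, limma-voom 3.58.1, the replicate number as a block, a score of sex-linked genes as covariate, and leaving out each library. Leaving out control replicate 12 or MCD replicate 2, in the ratios and correlations, and both together, was chosen after seeing the data.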

Additional observations from a re-analysis of the deposited data

How the results depend on the processing

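Gls2, Otc, Nags and Ass1 kept their direction under every alternative run and were called in all 24 fits that left out 1 library, and over those fits the number of the 9 genes called lower ran from 4 to 7, against 4 with all libraries (7 without control replicate 6 or MCD replicate 9, 6 without control replicate 8, 9 or 11 or MCD replicate 1, and 5 without control replicate 12). Without control replicate 12 and MCD replicate 2 together it was 3, as Ass1 missed the fold limit. Of the 9 genes 1 was called lower with upper-quartile factors, 0 with total counts alone, 0 with hepatocyte-list factors, 7 at an FDR of 0.05 with any fold and 0 at a log2 limit of 1. The direction turned with hepatocyte-list factors for Cps1 (0.025), Asl (0.062), Slc25a15 (0.051), Sds (0.28), Hal (0.25) and the list gene Agmat (0.0032), and with total counts alone for Sds (0.074) and Hal (0.056). Of the 87 pathway genes tested, 54 were called lower, against 35 with upper-quartile factors, 17 with total counts, 10 with hepatocyte-list factors and 11 at a log2 limit of 1. Called higher by edgeR were 0 of those described (4 at an unadjusted p under 0.05), against 3, 4 and 9 with those 3 factors in that order, 2 with DESeq2, 4 at an FDR of 0.05 with any fold and 1 each with limma-voom, the replicate block, no low-count filter and at least 10 counts in every library. Over all genes 2712 were called higher and 2688 lower, against 4539 and 848 with total counts, 6096 and 511 with hepatocyte-list factors, 3261 and 1710 with upper-quartile factors, 1862 and 686 at a log2 limit of 1, and 3742 and 5221 at an FDR of 0.05. The cause of these shifts was not tested, beyond the median over all genes, which moved by 0.37 with total counts, 0.54 with hepatocyte-list factors and 0.15 with upper-quartile factors. The labels give same-numbered libraries of the diets nothing in common but the number. Over these 12 pairs the correlation of deviations ran from -0.28 to 0.35, with a median of 0.23, against -0.06 for pairs of other numbers. Of the 12 pairs 8 were over 0.1, and 2 libraries were closest to their own number. Whether same-numbered libraries were handled together was not tested. With the replicate block 4 of the 9 genes were called lower, and the adjusted p of Gls2/Hal by sign flips was 0.0352. For ratios, 1 of 36 and 3 of 4 passed with a prior of 0.5 and with the block, and 4 of 4 of the second set did without control replicate 12. Correlations past the adjustment numbered 16 in control and 19 in MCD livers with total counts (6 and 4, against 12 and 9, both with and without the 2 farthest libraries), and in MCD livers 13, against 20, without MCD replicate 2.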

Other observations

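Genes that mark the zones of the lobule other than by nitrogen handling were described as 2 lists. Their calls and levels are given on the TMM scale only, on which hepatocyte markers had a list median of -0.66. The median over all genes moved by 0.37 with total counts alone and by 0.54 with hepatocyte-list factors, so these calls may depend on the scale. Of 11 other periportal genes 4 fell (36.4%) and 1 rose (9.09%), against 19.1% and 19.2% of all genes tested, with a list median log2 fold change of -0.43 against -0.10 over all genes tested. The apolipoprotein gene Apoa4 fell by 1.26 (SE 0.25, edgeR FDR 7.63e-05), Fbp1, an enzyme of glucose production, by 0.81 (SE 0.11, FDR 4.96e-07) and Pigr, the receptor that carries immunoglobulins into bile, by 0.60 (SE 0.10, FDR 1.66e-05). Cdh1, E-cadherin, which bile duct cells also express, rose by a log2 fold change of 1.62 (SE 0.18, FDR 2.33e-08) in livers in which 7 of 7 cholangiocyte markers were higher, and the part of those cells in its rise was not tested. Summed over the list, periportal levels ran from 8534 to 12827 CPM in control and from 4340 to 9122 CPM in MCD livers and overlapped.

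Of 12 pericentral genes 2 fell (16.7%) and 1 rose (8.33%), shares near and below those of all genes tested, with a list median of -0.25. Cyp2c29, a cytochrome P450, fell by 2.29 (SE 0.52, edgeR FDR 0.000463), and Tbx3, a transcription factor, by 1.59 (SE 0.18, FDR 1.95e-08). Rhbg, an ammonium transporter of pericentral hepatocytes, rose by a log2 fold change of 1.27 (SE 0.17, FDR 6.14e-07), whereas Glul, with which it shares its cells, had -0.08 (FDR 0.553). Summed pericentral levels were 5498 to 13144 CPM in control and 7076 to 10009 CPM in MCD livers and overlapped. Whether the periportal and pericentral lists differ from each other was not tested. Exons of other genes overlap Apoa4, Tbx3 and Glul on the opposite strand and Cyp2c29, Rhbg and Glul on the same strand, so their counts are uncertain.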
